A study of Mus musculus with 7 samples.

Results

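The nonclassical MHC class I genes examined here were H2-T3, H2-T10, H2-T22, H2-T23, H2-Q1, H2-Q2, H2-M3, Cd1d1 and Mr1. They were found by symbol, and all 9 were among the 22987 genes listed. The material was scraped from the lumen of the duodenum, and the mice were C57BL/6 aged 6 weeks. The 4 Nlrc4-T337S libraries came from mice whose Nlrc4 inflammasome gene carries the T337S change, written as homozygous in the series title, and the 3 controls were wild type. No other allele, treatment or agent is given, and the labels do not say whether each library came from its own animal, so each p-value reflects only how far these libraries differ, which may be technical. A scraping holds epithelium with lymphocytes and some underlying tissue, and fewer cells of a type cannot be told apart from less RNA per cell.

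Class I molecules are heavy chains that fold with the light chain beta-2 microglobulin, encoded by B2m. The classical chains H2-K1 and H2-D1 show peptides to CD8 T cells in nearly every tissue. Nonclassical chains vary little between individuals and show a narrower range of ligands, often to lymphocytes of the gut lining. H2-T3 encodes the thymus leukaemia antigen, which is made by small intestinal epithelium and binds CD8 alpha homodimers on intraepithelial lymphocytes. H2-T23 encodes Qa-1, which holds leader peptides of classical class I chains for the CD94 and NKG2 receptors. H2-T10 and H2-T22 are bound directly by some gamma delta T cell receptors, H2-M3 presents formylated peptides, Cd1d1 presents lipids to natural killer T cells, and Mr1 presents vitamin B metabolites to mucosal-associated invariant T cells.

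Depth ran from 45032119 to 95732587 reads past quality control, and 84.2% to 97.1% of them mapped. Values are RPKM, reads scaled to gene length and to the library's mapped reads. The enterocyte markers were present throughout, with all 8 listed and a summed level of 26243 to 39471 RPKM in Nlrc4-T337S and 30553 to 39142 in wild type. Apoa1 and Apoa4 made up most of that sum in every library. Libraries with odd and even numbers in their sample titles, across both genotypes, differed in Alpi (365 to 628 against 964 to 1268 RPKM). Sis was at 1206 to 1989 against 880 to 963. The other enterocyte markers overlapped between odd and even. The 6 Paneth cell markers summed to 134 to 591 in Nlrc4-T337S and 901 to 1324 in wild type. The 7 fibroblast and endothelium markers summed to 1.10 to 4.06 and 5.48 to 14.1, and the 6 pancreatic acinar markers to 9.12 to 12.8 and 22.3 to 32.1. None of these 3 summed levels overlapped between genotypes, where 17.3% of all tested genes, taken singly, were also lower in Nlrc4-T337S without overlap. Clps made up most of the acinar sum in every library, and the other acinar markers were at 1.96 RPKM or less. The part of these cells in the results on class I genes was not tested.

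How much of each gene can be told from its relatives decides how a level is read, since how the authors placed reads with several matches is not given in the sources used here. Windows of 50 bases were taken along the exons annotated by GENCODE vM1 on mm9 and searched for in the whole genome on both strands. In H2-T22 36.5% of 3087 windows were also found elsewhere, and in H2-T10 35.3% of 3094. Of these, 1000 windows of H2-T22 lay also within H2-T10, and the span of the transcript BC023719 held 1031 windows of H2-T10. In H2-T23 32.1% of 2742 windows recurred, of which 705 lay in the span of BC023719 and 474 in C920025E04Rik, a pseudogene of the same cluster. Of Cd1d1 24.1% recurred, nearly all in its neighbour Cd1d2. H2-T3 was nearly free of such copies at 1.58% of 2532 windows, and H2-M3 and Mr1 had 0. For the Q genes the annotation holds a pair of loci that are both named H2-Q2 and none named H2-Q1; 19.0% and 18.7% of their windows recurred. The levels of H2-T10, H2-T22, H2-T23, Cd1d1, H2-Q1 and H2-Q2 are therefore uncertain singly.

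**Figure D1:**
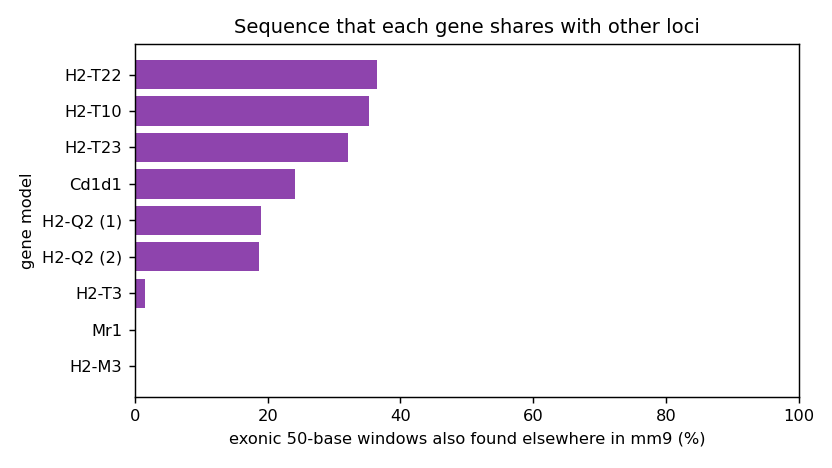
Share of each gene's annotated exonic 50-base windows that occur at least once elsewhere in the mm9 genome, in percent; the pair of bars for H2-Q2 are the loci that both carry that name. H2-T22 and H2-T10 reach 36.5% and 35.3%, while H2-M3 and Mr1 are at 0.

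Across the 7 libraries H2-Q2 had the highest mean at 840 RPKM (rank 57 of 22987 genes), followed by H2-T23 at 345 (rank 178), H2-Q1 at 299.8 (rank 210) and H2-T3 at 125 (rank 523). H2-T22 came next, with a mean 10.4 times below that of H2-T3 and 4.68 times above that of H2-M3. H2-M3 and H2-T10 had means of 2.56 and 1.82, and Cd1d1 and Mr1 of 0.718 and 0.253. The ranges of neighbours in this order did not overlap, with 3 exceptions. The ranges of H2-T23 and H2-Q1 overlapped, and H2-T23 was the higher in 6 of 7 libraries. The ranges of H2-M3 and H2-T10 and of Cd1d1 and Mr1 also overlapped, though the order held within each of the 7 libraries. Mr1 rested on 9.57 to 33.1 reads per kilobase and Cd1d1 on 29.4 to 74.3, computed from RPKM and mapped reads, so both are less precise than H2-T3 at 4938 to 11097.

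**Figure D2:**
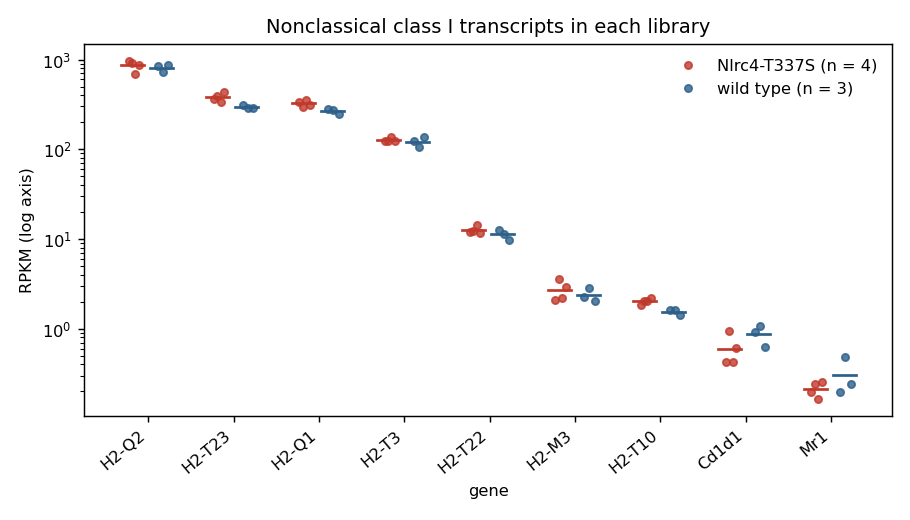
RPKM of the 9 genes in each library on a log axis; points are libraries, red for Nlrc4-T337S (n = 4) and blue for wild type (n = 3), and bars are group means. The genes span from a mean of 840 RPKM for H2-Q2 to 0.253 for Mr1, and the red and blue points are apart in H2-T23, H2-Q1 and H2-T10.

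The comparison between genotypes asks whether these transcripts differ between the Nlrc4-T337S and wild-type libraries. The numbers in the sample titles run from 6667 to 6670 in Nlrc4-T337S and from 6693 to 6696 in wild type. Anything that differed between those 2 runs of numbers cannot be told apart from genotype. No gene of the set passed: limma on log2(RPKM + 0.5) with Benjamini-Hochberg adjustment over 10987 genes at 0.05 called 0 of the 8 tested higher and 0 lower, where it called 0.3% of all genes higher and 0.592% lower. Mr1 was not tested, since its mean was under the filter of 0.5 RPKM. Unadjusted, 3 of the 8 had p under 0.05, all higher, against 1.86% of all genes higher and 20.4% lower. The same 3, H2-T23, H2-T10 and H2-Q1, did not overlap between genotypes, the mutant libraries all being higher, against 1.97% of all genes higher and 17.3% lower without overlap. Log2 changes were positive in 7 of 8, with a median of 0.15, while all tested genes had a median of -0.15 and 2413 of them were positive. Under median-of-ratios scaling the all-gene median moved to 0.01, so changes are also given relative to the median, and 52.2% of called genes were higher there against 33.7% as deposited. Under quantile normalization 55.6% of calls were higher and 1 gene of the set, H2-T10, passed.

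**Figure D3:**
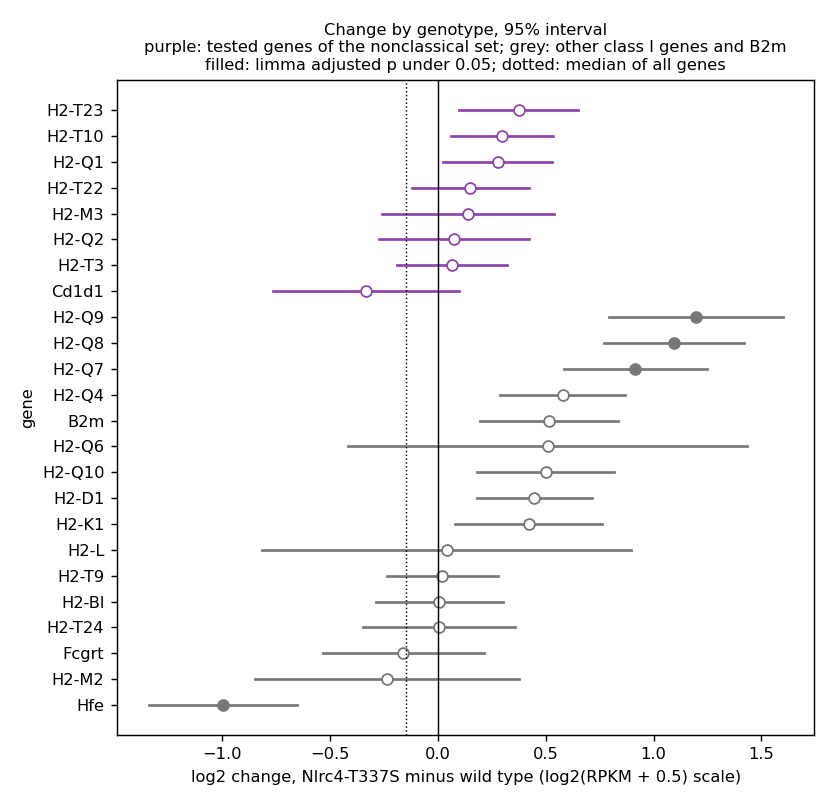
Log2 change, Nlrc4-T337S minus wild type, with its 95% interval for the 8 tested genes of the set (purple), other class I genes and B2m (grey); filled points had limma adjusted p under 0.05 and the dotted line is the all-gene median of -0.15. H2-T23, at 0.38, has the highest purple point, while H2-Q7, H2-Q8 and H2-Q9 lie between 0.92 and 1.20.

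H2-T23, the Qa-1 gene (chromosome 17, 36166718 to 36169800, minus strand, mm9), had the largest positive change of the set, on a level that shares sequence with its relatives. Its RPKM in Nlrc4-T337S replicates 1 to 4 was 368, 395, 333 and 438, and in wild-type replicates 1 to 3 it was 309, 286 and 287. The lowest mutant library lay above the highest control. Means were 384 ± 44.5 (SD, n = 4) and 294 ± 12.9 (SD, n = 3), 30.4% apart, with a log2 change of 0.38 (SE 0.12, 95% interval 0.10 to 0.65; 0.52 relative to all genes) and a limma adjusted p of 0.15. It did not pass under any alternative tried, and came nearest under median-of-ratios scaling, at 0.55 with an adjusted p of 0.0509; over its 17 alternatives adjusted p ran up to 0.375. The summed level of the T cell and intraepithelial lymphocyte markers, 8 of 8 listed and none at 0, was also higher. It was 495 to 636 RPKM in Nlrc4-T337S and 405 to 472 in wild type. Of the 8 markers, 7 had the higher mean in Nlrc4-T337S and 1 passed. Gzma, Ccl5 and Gzmb made up most of the sum in every library. Cd3e had the lower mean in Nlrc4-T337S, at 7.18 against 7.99 RPKM. Ccl5, Cd3d, Cd3e, Cd8a and Itgae overlapped between genotypes, while Cd3g, Gzma and Gzmb were higher without overlap. Of all tested genes 1.97% were higher without overlap. The part of these markers in the level of H2-T23 was not tested.

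**Figure D4:**
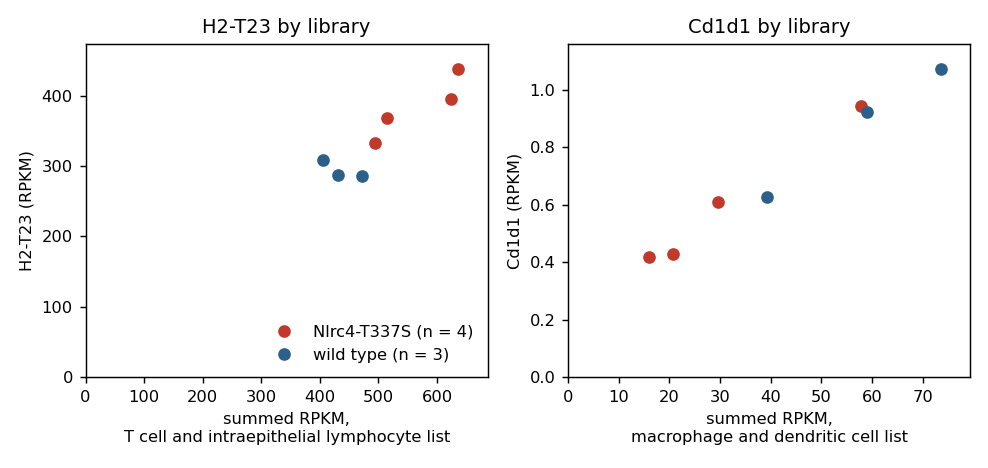
Left, H2-T23 against the summed level of 8 T cell and intraepithelial lymphocyte markers; right, Cd1d1 against the summed level of 7 macrophage and dendritic cell markers, all in RPKM with 1 point per library (red Nlrc4-T337S, n = 4; blue wild type, n = 3). Gzma, Ccl5 and Gzmb make up most of the sum at left. Nlrc4-T337S replicate 4 is highest on both axes at left, and Nlrc4-T337S replicate 3 is lowest on both axes at right.

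H2-T10 and H2-T22, the pair bound by gamma delta receptors, differed in level and in how their libraries fell. H2-T10 (chromosome 17, 36252821 to 36258410), annotated as a polymorphic pseudogene, was at 1.82, 2.02, 2.03 and 2.19 RPKM in the mutants, against 1.61, 1.61 and 1.42 in the controls. Its groups did not overlap, and the log2 change was 0.30 (SE 0.10, 95% interval 0.06 to 0.53; 0.45 relative to all genes; limma adjusted p = 0.161). Under quantile normalization it passed, at 0.54 with an adjusted p of 0.0365, and over its 16 alternatives adjusted p ran from there to 0.391. H2-T22 (chromosome 17, 36174073 to 36179692), a coding gene with 4.68 times the mean level of H2-M3, was at 11.8, 12.2, 14.5 and 11.7 in the mutants, against 12.7, 11.3 and 9.78 in the controls. Its groups overlapped (log2 change 0.15, SE 0.12, interval -0.12 to 0.42). Exons of other annotated transcripts cover 27.1% of the exonic bases of H2-T10 and 29.6% of those of H2-T22, and the kit does not mark strand, so reads of these transcripts cannot be told apart there.

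H2-T3, the thymus leukaemia antigen gene (chromosome 17, 36322517 to 36327232, minus strand, mm9), was nearly level across the libraries. It stood at 124, 124, 136 and 123 RPKM in the mutants, against 122, 106 and 138 in the controls, the narrowest relative range of the set at 1.30-fold between lowest and highest. The highest and the lowest libraries were both wild type. The log2 change was 0.07 (SE 0.11), and its 95% interval of -0.19 to 0.32 bounds what these libraries allow. Without wild-type replicate 2, the lowest library, the change was -0.032.

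RefSeq promoters (GRCm38.p6) were matched for 6 of the 9 genes, and 4 are shown beside that of H2-Q7, a Qa-2 gene that passed the test, because H2-T23 and H2-T3 differed in how their libraries separated. Each is the 250 bases before the transcript start, 5′ to 3′ on the gene's strand, and capitals mark matches on either strand to motifs picked after the sequences were seen: TTTCACTT, the interferon response sequence of class I promoters, TGATGAC of the X box region, and CCAAT. No match overlapped another in these windows.
H2-T23, chr17:36032702-36032951, minus: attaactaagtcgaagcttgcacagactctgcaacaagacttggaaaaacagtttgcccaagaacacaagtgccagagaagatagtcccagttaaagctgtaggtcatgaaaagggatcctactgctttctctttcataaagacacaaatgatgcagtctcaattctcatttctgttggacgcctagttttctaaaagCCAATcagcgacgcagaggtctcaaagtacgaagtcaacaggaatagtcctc
H2-T3, chr17:36190152-36190401, minus: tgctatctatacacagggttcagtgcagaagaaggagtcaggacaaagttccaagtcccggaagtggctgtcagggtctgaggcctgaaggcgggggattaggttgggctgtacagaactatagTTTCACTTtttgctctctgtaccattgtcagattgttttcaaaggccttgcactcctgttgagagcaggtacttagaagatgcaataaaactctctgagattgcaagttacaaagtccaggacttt
H2-T22, chr17:36042743-36042992, minus: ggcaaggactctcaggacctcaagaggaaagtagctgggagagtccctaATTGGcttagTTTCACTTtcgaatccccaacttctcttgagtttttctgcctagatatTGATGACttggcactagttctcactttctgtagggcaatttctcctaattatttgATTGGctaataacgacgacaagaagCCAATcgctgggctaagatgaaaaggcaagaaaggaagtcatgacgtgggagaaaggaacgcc
H2-M3, chr17:37269984-37270233, plus: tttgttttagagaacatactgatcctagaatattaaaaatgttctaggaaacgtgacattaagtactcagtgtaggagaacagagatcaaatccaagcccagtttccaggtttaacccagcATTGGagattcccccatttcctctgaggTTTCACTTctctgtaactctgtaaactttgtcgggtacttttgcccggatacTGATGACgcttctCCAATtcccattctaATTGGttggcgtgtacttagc
H2-Q7, chr17:35438905-35439154, plus: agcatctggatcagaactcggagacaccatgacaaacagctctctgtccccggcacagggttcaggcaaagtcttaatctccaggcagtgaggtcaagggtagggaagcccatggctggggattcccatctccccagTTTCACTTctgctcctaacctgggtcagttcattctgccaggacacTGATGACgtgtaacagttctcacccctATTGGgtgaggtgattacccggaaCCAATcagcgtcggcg

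The motif TTTCACTT lay in the windows of H2-T3, H2-T22, H2-M3 and H2-Q7, where 1.36% of 32851 promoter windows hold it. TGATGAC lay in those of H2-T22, H2-M3 and H2-Q7 (2.69% of windows), beginning 143, 49 and 67 bases before the start, where TTTCACTT began at 191, 101 and 113. CCAAT lay in all of the 5 except H2-T3 (33.8% of windows). The window of H2-T23 held CCAAT alone of the 3 motifs, as did that of H2-Q2, and the window of Mr1 held none of them. Both TTTCACTT and TGATGAC also lay in the windows of H2-Q4, H2-Q6 and H2-D1, which did not pass. TTTCACTT without TGATGAC lay in those of H2-K1 and H2-Q10, which did not pass either. H2-Q4, H2-D1, H2-K1 and H2-Q10 were higher in Nlrc4-T337S without overlap, with log2 changes of 0.58, 0.45, 0.42 and 0.50. Of all tested genes 1.97% were higher without overlap. H2-Q6 overlapped between genotypes, with a log2 change of 0.51. Neither TTTCACTT nor TGATGAC lay in the window of Tap1, which passed. A link between motifs and changes was not tested. These matches are letters in a window and describe no binding.

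The Q region genes were among the highest of the set, though their copies are uncertain singly. H2-Q1 stood at 332, 293, 357 and 315 RPKM in the mutants, against 280.3, 271 and 249 in the controls, without overlap. Means were 324 ± 27.1 (SD, n = 4) and 267 ± 15.9 (SD, n = 3), with a log2 change of 0.28 (SE 0.11, 95% interval 0.03 to 0.53; 0.42 relative to all genes; limma adjusted p = 0.193). H2-Q2 stood at 966, 920.3, 683 and 872 in the mutants, against 847, 731 and 859 in the controls. The lowest H2-Q2 library was Nlrc4-T337S replicate 3, which was the highest for H2-Q1. Its log2 change was 0.07 (SE 0.15, interval -0.27 to 0.42).

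H2-M3, the formylated peptide presenter (chromosome 17, 37407165 to 37411429, plus strand, mm9), did not separate the genotypes. It stood at 2.11, 3.55, 2.20 and 2.95 RPKM in the mutants, against 2.27, 2.81 and 2.04 in the controls, for a log2 change of 0.14 (SE 0.18, interval -0.26 to 0.54). Its highest libraries were Nlrc4-T337S replicates 2 and 4, which also had the highest summed T cell markers, and its lowest was wild-type replicate 3. The rest of the order differed. Nlrc4-T337S replicates 1 and 3 lay below wild-type replicates 1 and 2 for H2-M3, but above every wild-type library for the T cell sum.

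Cd1d1, the lipid presenter (chromosome 3, 86799756 to 86803363), was the only tested gene of the set with a negative change. It stood at 0.430, 0.942, 0.420 and 0.610 RPKM in the mutants, against 0.923, 1.07 and 0.626 in the controls, a 2.56-fold range that was the widest of the tested genes. Nlrc4-T337S replicates 1 and 3 were lowest, while replicate 2 lay within the wild-type range. The log2 change was -0.33 (SE 0.19, 95% interval -0.76 to 0.10; -0.19 relative to all genes; limma adjusted p = 0.332). Cd1d2, its neighbour copy, was listed at 0.0211 RPKM or less in every library.

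The macrophage and dendritic cell markers ordered the libraries almost as Cd1d1 did. The 7 listed markers, none at 0, summed to 20.7, 57.8, 16.0 and 29.6 RPKM in the mutants, against 59.1, 73.6 and 39.2 in the controls. The order from low to high was the same as for Cd1d1 except that Nlrc4-T337S replicate 2 and wild-type replicate 1 changed places. The 7 listed B cell and plasma cell markers, which ranked the libraries exactly as the macrophage markers did, summed to 46.9 to 249.98 in Nlrc4-T337S and 235 to 631 in wild type. In both lists all 7 markers had the lower mean in Nlrc4-T337S, and none of the 7 and 6 tested passed. The fibroblast and endothelium markers gave the macrophage order except that Nlrc4-T337S replicate 2 and wild-type replicate 3 changed places. The order is therefore not particular to 1 cell type. The part of these cells in the level of Cd1d1 was not tested.

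Mr1, the metabolite presenter (chromosome 1, 156975008 to 156993910), was the least abundant of the set. It stood at 0.198, 0.241, 0.166 and 0.253 RPKM in the mutants, against 0.196, 0.478 and 0.242 in the controls. The groups overlapped, and wild-type replicate 2, the highest for the macrophage and B cell markers, was also the highest for Mr1. The rest of the order differed. Wild-type replicate 1 lay below Nlrc4-T337S replicate 4 for Mr1 but above it for both marker sums.

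Genes that passed were found among the other class I and class I-like genes. Of 23 on that list 22 were found and 12 tested. Among the 12, 3 rose and 1 fell, with a median log2 change of 0.26 (0.41 relative to all genes). Of all tested genes 0.3% were called higher and 0.592% lower, and the same shares stand beside the calls of the lists below. H2-Q8 stood at 7.23, 8.52, 6.21 and 6.71 RPKM in the mutants, against 2.48, 3.38 and 3.43 in the controls (limma adjusted p = 0.0148 for a log2 change of 1.09, SE 0.14). H2-Q9 and H2-Q7, genes of the Qa-2 antigen, rose from 5.46 ± 0.585 to 13.4 ± 3.56 and from 6.72 ± 0.513 to 13.3 ± 2.53 (SD; log2 changes 1.20 and 0.92, limma adjusted p = 0.0234 and 0.0305). These are close copies, with 65.2% of the windows of H2-Q7 found elsewhere. Only their shared direction is read, and the 3 calls are not taken as separate results. Hfe, a class I-like chain that binds the transferrin receptor, fell from 2.31 ± 0.184 to 0.924 ± 0.248 (log2 change -0.99, limma adjusted p = 0.025).

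The genes that serve class I assembly gave 2 calls among 16 tested, both higher, with a median log2 change of 0.23 (0.37 relative to all genes). Nlrc5, the class I transactivator, had 1.33 ± 0.199 RPKM in the controls and rose to 3.23 ± 0.643 (limma adjusted p = 0.0234, log2 change 1.01), and Tap1, a chain of the peptide transporter, had 12.3 ± 1.96 and rose to 21.8 ± 2.63 (limma adjusted p = 0.0378, log2 change 0.80). Of the 3 classical genes none passed; H2-D1 was at 497 ± 41.0 and 364 ± 27.0 and H2-K1 at 1600.5 ± 174 and 1194 ± 136, Nlrc4-T337S first (limma adjusted p = 0.108 and 0.166). In the list for CD1d and MR1 loading 1 of 10 passed, Cd74, the invariant chain shared with class II, with a log2 change of 1.27, and the median of the list was -0.28 (-0.14 relative to all genes). In the list of receptors and lymphocyte genes that read these molecules 9 of 17 were tested and 1 passed, the granule protease Gzmb (log2 change 0.66), with a list median of 0.15 (0.30 relative to all genes). The 8 calls of these lists, H2-Q7, H2-Q8, H2-Q9, Hfe, Nlrc5, Tap1, Cd74 and Gzmb, kept their direction under every alternative. Each of the 8 did not pass without Nlrc4-T337S replicate 4, wild-type replicate 1 or wild-type replicate 2, and passed without Nlrc4-T337S replicate 2. With no filter on low values none of the 8 passed, with limma adjusted p from 0.0831 for H2-Q8 to 0.123 for Tap1. Of 7 libraries left out in turn, Cd74 passed in 4, H2-Q8 in 3, H2-Q7 and H2-Q9 in 2, and Hfe, Nlrc5, Tap1 and Gzmb in 1, with limma adjusted p over all alternatives reaching 0.0847 for H2-Q8 and 0.206 for Gzmb.

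B2m, the light chain all these molecules share, gives a scale within each library, and a ratio to it is not altered by multiplying a whole library by a factor. It was at 4002, 4074, 3995 and 3769 RPKM in the mutants, against 2879, 2782 and 2644 in the controls, without overlap (log2 change 0.52, SE 0.14, limma adjusted p = 0.116). Per 1000 RPKM of B2m, H2-T3 stood at 30.9, 30.5, 34.2 and 32.7 RPKM in the mutants, against 42.4, 38.0 and 52.1 in the controls. Every Nlrc4-T337S library lay below every wild-type library in that ratio, as it did for H2-T22, H2-Q1, H2-Q2, Cd1d1 and Mr1, but 83.3% of all genes did the same, so the count is not a result about the set. For H2-T23 the ratio overlapped, at 91.9, 97.1, 83.3 and 116 against 107, 103 and 109, and the ratios of H2-T10 and H2-M3 overlapped too. These are unequal changes of 2 transcripts, and they do not say which of them moved.

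The set also made up a smaller part of all class I heavy chain RNA in Nlrc4-T337S. Of the summed RPKM of 34 class I heavy chain genes, the 9 genes held 42.7%, 41.6%, 42.7% and 41.8% in the mutants, against 44.7%, 45.1% and 48.9% in the controls, without overlap. That sum of 34 genes was itself higher in Nlrc4-T337S without overlap, at 4062 ± 321 RPKM against 3273 ± 217 (SD). The share of all genes that fall likewise against it was not computed, so the lower part is not read as a result about the set. The sum of the 9 genes alone overlapped, at 1713 ± 125 RPKM and 1512 ± 87.7. The classical chains summed to 2141 ± 187 and 1596 ± 162 and did not overlap. Within the set H2-T23 took a larger part in each Nlrc4-T337S library, at 20.4% to 24.8% of the set against 18.6% to 20.3%. The nearest libraries, Nlrc4-T337S replicate 1 and wild-type replicate 2, were at 20.36% and 20.25%. The share of all genes that rise likewise against the summed set was not computed. H2-Q2 took the most in every library, at 44.7% to 55.5%.

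**Figure D5:**
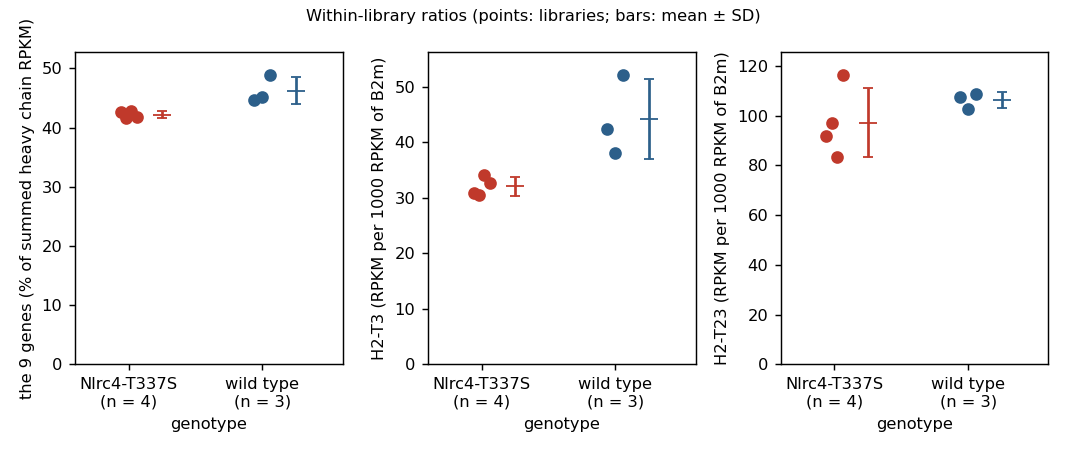
Left, the 9 genes as a percent of the summed RPKM of 34 class I heavy chain genes; middle and right, H2-T3 and H2-T23 per 1000 RPKM of B2m; points are libraries and bars are mean ± SD (Nlrc4-T337S, n = 4; wild type, n = 3). The genotypes do not overlap at left (41.6% to 42.7% against 44.7% to 48.9%), where the share of all genes that fall likewise was not computed. They do not overlap in the middle, where 83.3% of all genes are likewise lower per B2m without overlap, and they overlap at right.

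The genes nearest in pattern were sought for the most abundant and the most variable tested gene, by the root mean square difference of centred log2(RPKM + 0.5) over the 7 libraries. For H2-Q2 these were D330023K18Rik, 3110001I22Rik and the epithelial keratin Krt8, at 0.04, 0.05 and 0.06, where the median over 10979 genes was 0.24. For Cd1d1 they were Siglece, a lectin receptor of myeloid cells, Batf, a transcription factor of lymphocytes and dendritic cells, and Tmpo, a nuclear envelope protein, at 0.04, 0.05 and 0.05, where the median was 0.26. The search ran over many genes and few libraries, and the measure says nothing of shared control.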

How the data were processed

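RNA-seq of 7 duodenal libraries, 4 Nlrc4-T337S and 3 wild type, was read from the deposited gene table. Per the file headers, the authors aligned reads to mm9 with TopHat 2.1.0 and quantified genes as RPKM with Partek 6.16.0606. The deposited fraction of reads mapped is given here as a percent. How multiply mapping reads were shared is not given in the sources used here, and no read counts were used. Replicates are numbered in accession order, and 0 columns of per-sample values were left unused.

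Values were taken as log2(RPKM + 0.5), which understates changes of low genes. The 10987 genes with mean RPKM of at least 0.5 were fitted with limma 3.58.1 (R 4.3.3, intensity trend), with Benjamini-Hochberg adjustment over all of them at 0.05; the code was tested on simulated data. Each gene of the set was named, and from each other list the genes that passed, up to 4, or otherwise the 2 with the smallest p. B2m, Cd1d2 and the ratios to B2m or to summed heavy chains were chosen after values were seen. The members and lists were chosen with earlier results of these data known. Loci and 50-base windows came from GENCODE vM1 on mm9, and promoters from RefSeq on GRCm38.p6. H2-T18, Trac, Trdc and Tcrg-C1 are not analysed here. Alternatives covered pseudocounts of 0.1 and 1, filters, scaling, variance, weights, a title-number term and leaving out each library. The same alternatives for the called genes of the other lists were added after seeing the data.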

Additional observations from a re-analysis of the deposited data

Results flagged for a closer look

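In 3 of the 20 groups of 4 Nlrc4-T337S libraries checked, 1 library stood far from the others. Chance gives about 1 in 20 for independent groups, but these genes share the same 4 libraries and some share sequence. The 3 are therefore not read as an excess. H2-T3 was highest at 136 RPKM in Nlrc4-T337S replicate 3, while the other 3 libraries lay at 123 to 124. H2-T22 was highest in that same library, at 14.5 RPKM against 11.7 to 12.2. H2-Q9 was highest at 18.7 RPKM in Nlrc4-T337S replicate 2, with the lowest at 11.1, and that library had the fewest reads.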

How the results depend on the processing

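Of 10987 genes, 33 were called higher and 65 lower. Genes called higher numbered 7 with no filter, 71 under median-of-ratios scaling, 74 under quantile normalization and 61 with array weights. Genes called lower numbered 38 with no filter, 28 at a mean RPKM of at least 2, 287 with array weights and 105 with a term for odd or even title number. Leaving out each library in turn gave 9 to 74 higher and 3 to 1280 lower, with both highest counts without Nlrc4-T337S replicate 2. Of the set, 1 gene was called higher under quantile normalization, H2-T10 (0.54, limma adjusted p = 0.0365), and 0 under the other settings; 0 were called lower under any. Leaving out each library in turn, the change of H2-T3 ran from -0.032 (without wild-type replicate 2) to 0.16 (without wild-type replicate 3); the other 7 genes kept their sign under every alternative that gave a value. The filter at 2 gave none for H2-T10 and Cd1d1. Changes ranged from 0.31 to 0.55 for H2-T23, 0.23 to 0.46 for H2-Q1 and -0.51 to -0.07 for Cd1d1. Among even title numbers alone (2 against 1), H2-T3 and H2-Q2 had differences of -0.09 and -0.15, against 0.13 and 0.26 among odd ones (2 against 2). No paired analysis was possible because the labels give no pairing or litter that would join mutant and wild-type libraries. Depth limits Mr1 and Cd1d1 most; 1 read per kilobase was worth 0.0124 to 0.0251 RPKM.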
